A study of Mus musculus with 30 samples.

Results

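The regions described here are all stretches of mouse chromosomes 4 and 14 that were called as bound by cohesin in at least 1 of 6 lists from NIH3T3 cells. Regions of the 6 lists were merged where they overlapped or touched, which gave 10556 merged regions on chromosome 4 and 5171 on chromosome 14, together 15727 of the 150690 merged regions of all chromosomes (10.4%). Both chromosomes were chosen by measured values of the same 6 lists, in which they had come out at opposite ends of the chromosomes: the ratio of regions of one cell line to regions of the other, and the shift in rank of regions common to both. Those values are therefore given as a description, and nothing is supported with them. What the choice did not fix is how the difference lies along each chromosome, in blocks of 5 Mb.

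The series holds 30 mouse samples on how CTCF binding relates to chromatin, each the only sample of its group, and 22 of them are not analysed here. Beside the 6 NIH3T3 lists, 2 lists of regions bound by Snf2h, a chromatin remodeller, were used for overlaps and gaps only. They come from wild-type and mutant CH12 cells, a mouse B-cell lymphoma line. NIH3T3 is an immortalised line of mouse embryonic fibroblasts, and such lines commonly carry an abnormal chromosome number. Both NIH3T3 lines stably carried a CpG-free plasmid: the control line the empty vector (EV), which expresses beta-galactosidase, and the other line the same kind of plasmid expressing BORIS (clone 2). Asynchronously growing cells of each line were fixed with formaldehyde, the chromatin was sheared, and each line was assayed once by ChIP-seq with antibodies against SMC1, RAD21 and SMC3. The BORIS line was thus 1 clone, so the presence of BORIS and the history of that clone cannot be told apart. With 1 library per line and antibody there was no test between lines, and the spread between the 3 antibodies within a line is technical spread on the same cells: it holds no error between lines or clones. No RNA was measured in these lists, so the cell type could not be checked by markers.

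Cohesin is a ring-shaped protein complex that holds DNA strands together and extrudes loops of chromatin. SMC1 and SMC3 are its long coiled-coil arms, and RAD21 is the kleisin subunit that closes the ring, so the 3 antibodies read the same complex. In mammalian cells cohesin accumulates where CTCF, a zinc-finger protein, sits on its DNA motif and halts extrusion. BORIS, also named CTCFL, is a paralog of CTCF that is normally restricted to the germ line and has a similar DNA-binding domain but different ends. The height of a ChIP-seq region depends on how often the protein sits there in each DNA copy and on how many copies of that stretch the cells carry. DNA copy number was not measured here, and the 2 quantities cannot be told apart in these lists.

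The 6 lists held between 82235 and 107735 regions, and the weakest regions of each had a −log10 q of 1.30 to 1.32. Read totals are not given in the lists. As a stand-in for depth, the genome-wide background divided by the width of the narrowest region came to 7.43 to 8.79 fragments per kb, so the lists were of like depth by this measure. Chromosome 4 held 6.18 to 6.31% of the regions of the EV lists and 7.58 to 7.73% of those of the BORIS lists. Chromosome 14 went the other way, from 3.63 to 3.70% of the EV lists to 2.67 to 2.68% of the BORIS lists. In both cases the 3 antibodies of a line lay much closer to each other than the lines did.

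On chromosome 4 the lists of the BORIS line were longer with every antibody. SMC1 regions numbered 6672 in EV cells and 7841 in BORIS cells, RAD21 regions 5217 and 6359, and SMC3 regions 6355 and 8168. On chromosome 14 the same lists were shorter in BORIS cells, with 3940 and 2728 SMC1 regions, 3123 and 2200 RAD21 regions, and 3652 and 2889 SMC3 regions. On the remaining chromosomes the number in BORIS cells was 0.956, 0.968 and 1.07 times that in EV cells in the same order of antibodies, so list length itself did not move one way.

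Each merged region was then placed in a class. A region called with all 3 antibodies in one line and none in the other is private to that line, and a region called in all 6 lists is shared. The 15727 regions comprised 534 private to BORIS cells, 344 private to EV cells, 5045 shared and 9804 with other patterns, of which 4067 were called in a single list. Over all chromosomes 2.41% of merged regions were private to BORIS cells, 1.61% were private to EV cells and 34.5% were shared.

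Chromosome 4 held 486 regions private to BORIS cells and 71 private to EV cells, a ratio of 6.85 (95% interval 5.33 to 8.91, exact Clopper-Pearson, counting error only). Chromosome 14 held 48 and 273, a ratio of 0.176 (0.127 to 0.240). The other 18 chromosomes together held 3100 and 2075, a ratio of 1.49 (1.41 to 1.58). A stricter limit, −log10 q of 10 or more in each list, moved the ratios to 4.00 and 0.0505, and leaving out 1 antibody at a time gave 4.30 to 4.59 on chromosome 4 and 0.151 to 0.269 on chromosome 14. The direction was the same in each case. The counts moved more than the direction. Without 1 antibody, chromosome 4 held 765 to 1113 regions private to BORIS cells and 178 to 245 private to EV cells. Chromosome 14 then held 75 to 157 and 466 to 583.

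The excess on chromosome 4 was not spread along it evenly. The rank shifts by bin, given below, changed at 85 Mb, and the chromosome was split at that point after the values had been seen. Before 85 Mb there were 3271 merged regions, of which 96 (2.93%) were private to BORIS cells and 43 to EV cells, a ratio of 2.23 (1.54 to 3.28). From 85 Mb to the end there were 7285, of which 390 (5.35%) were private to BORIS cells and 28 (0.384%) to EV cells, a ratio of 13.9 (9.49 to 21.2). At a −log10 q of at least 10 the ratio before 85 Mb turned to 0.769, while that from 85 Mb was 10.3. Without RAD21 or without SMC3 the latter was 8.68 or 9.22, and without SMC1 or without SMC3 the ratio before 85 Mb was 1.34 or 1.25.

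List lengths also differed between the parts. Before 85 Mb the BORIS lists held 0.965, 1.00 and 1.09 times the regions of the EV lists with SMC1, RAD21 and SMC3, close to the other chromosomes. From 85 Mb the same ratios were 1.28, 1.33 and 1.38, and on chromosome 14 they were 0.692, 0.704 and 0.791. Counting lists per region gives the same picture without asking for all 3 antibodies. Of the regions from 85 Mb, 45.9% were called in more BORIS than EV lists and 13.0% in more EV than BORIS lists, where all chromosomes gave 27.5% and 29.4%. Before 85 Mb the shares were 28.4 and 28.6%, and on chromosome 14 they were 14.2 and 50.5%.

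For shared regions the lists give a strength as well. Each shared region was ranked within its list by the −log10 p of its summit and given a percentile, and the rank shift is the percentile in BORIS cells minus that in EV cells for the same antibody. A rank needs no scaling between lists, but it is relative: a chromosome that gains rank lowers the others. On chromosome 4 the median shift was 4.90 percentile points with SMC1, 4.30 with RAD21 and 4.44 with SMC3. On chromosome 14 it was −11.5, −8.12 and −9.58. With percentiles among all regions of a list instead of shared ones, the value for chromosome 4 was 2.45.

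Since the split was placed on the rank shifts, their values on either side of it restate that choice. Before it the median shifts were 0.02, 0.26 and −0.29 points, and from it they were 7.50, 6.07 and 7.01. Comparing 2 antibodies within a line in the same way, instead of 2 lines, gave medians from −1.54 to 2.496 points from 85 Mb, from −0.743 to 1.00 before it and from −3.79 to 1.26 on chromosome 14. These ranges describe the antibodies on 1 culture of each line, and say nothing of how far 2 lines of the same kind would differ.

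Region by region, 1374 of the 2449 shared regions from 85 Mb (56.1%) ranked higher in BORIS cells with all 3 antibodies and 167 (6.82%) ranked lower with all 3. Over all chromosomes these shares were 25.3% and 26.3%. Before 85 Mb, 284 of 1108 (25.6%) ranked higher and 283 (25.5%) lower. On chromosome 14, 99 of 1488 (6.65%) ranked higher and 905 (60.8%) lower. Most shared regions of the distal part of chromosome 4 and of chromosome 14 were shifted in the direction of their chromosome, and a minority against it.

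Ranks hide the size of a change, so the pileup, the number of fragments stacked at the summit, was solved from the deposited fold and −log10 p. It came out as a whole number for 100% of summits. The median pileup of shared regions on chromosome 14 was 39 in EV and 24 in BORIS cells with SMC1, 42 and 24 with RAD21, and 45 and 28 with SMC3. From 85 Mb on chromosome 4 it was 35 and 36, 32 and 33, and 37 and 41. Before 85 Mb it was 35.5 and 28.5, 35 and 28, and 37 and 32, much as on the other chromosomes, with 37 and 30, 36 and 28, and 40 and 34. Of these 4 sets of regions, the distal part of chromosome 4 was the one in which the median pileup was not lower in BORIS cells.

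Relative to the other 18 chromosomes, whose median ratio was set to 1, the median ratio of BORIS to EV pileup from 85 Mb was 1.24 with SMC1, 1.22 with RAD21 and 1.22 with SMC3 (log2 values 0.31, 0.29 and 0.29). On chromosome 14 it was 0.763, 0.775 and 0.771 (log2 −0.39, −0.37 and −0.38), and before 85 Mb it was 1.01 with each antibody. Between antibodies of one line the log2 values ranged from −0.05 to 0.07 from 85 Mb, from −0.08 to 0.07 before it and from −0.11 to 0.04 on chromosome 14. Without that scaling, the ratios were 0.963, 0.964 and 1.00 from 85 Mb, 0.594, 0.611 and 0.632 on chromosome 14, and 0.778, 0.789 and 0.819 on the other chromosomes. Divided by the genome-wide background of each list instead, the ratios shifted down on every chromosome: the whole of chromosome 4 gave 0.911 and chromosome 14 gave 0.607, while the other chromosomes gave 0.754, 0.784 and 0.831 with SMC1, RAD21 and SMC3. Chromosome 4 thus lay below 1 but above the other chromosomes, and "higher" for it means higher relative to them.

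**Figure D1:**
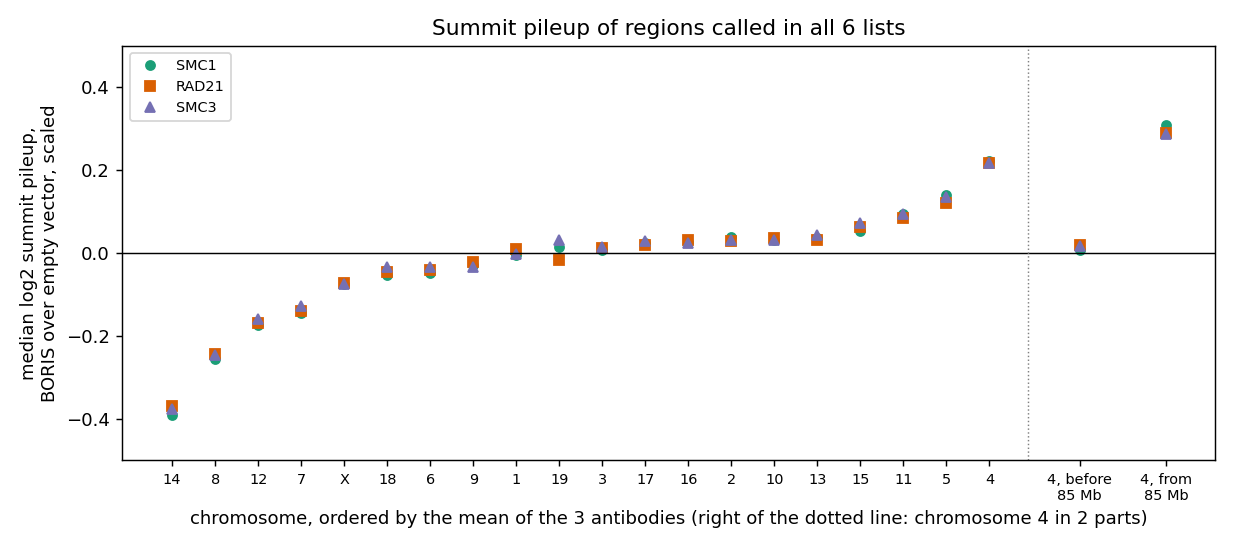
Median log2 ratio of summit pileup in BORIS over EV cells at regions called in all 6 lists (vertical axis, scaled so that the median over chromosomes other than 4 and 14 is 0) for each chromosome, ordered by the mean of 3 antibodies (points: SMC1 circles, RAD21 squares, SMC3 triangles). Chromosome 14 is lowest at −0.39 to −0.37 and chromosome 4 highest, and right of the dotted line the part before 85 Mb lies at 0 while the part from 85 Mb lies at 0.29 to 0.31.

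The spread of single regions about these medians was wide. From 85 Mb, 76.8 to 77.7% of shared regions had a scaled ratio above 1, depending on the antibody, and on chromosome 14 it was 21.9 to 24.0%, shares that largely follow from the choice of stretches by their medians. The range between the lower and upper quartile of shared regions ran from 0.02 to 0.64 in log2 with SMC1 from 85 Mb and from −0.69 to −0.03 on chromosome 14, against −0.29 to 0.32 on the other chromosomes. The distributions overlapped while their centres differed.

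Chromosomes 4 and 14 were the ends of a graded order, not the only chromosomes to move. By the mean log2 ratio of the 3 antibodies, chromosome 14 (−0.38) was followed by chromosome 8 (−0.25), 12 (−0.17) and 7 (−0.14), and chromosome 4 (0.22) was preceded by chromosome 5 (0.13) and 11 (0.09). Private regions had a like order: chromosome 8 held 83 private to BORIS and 222 to EV cells, and chromosome 5 held 337 and 88. In each list on its own, the mean pileup of shared regions on chromosome 14 ranked between 9 and 11 among 20 chromosomes in EV cells and 19 in all 3 BORIS lists. Chromosome 4 ranked 13 or 14 in the EV lists and 2 in all 3 BORIS lists. In EV cells neither chromosome stood apart in level.

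Along chromosome 4, 29 of its 32 bins of 5 Mb held at least 20 shared regions, the number asked for to give a median. From 85 Mb all 15 bins had a positive median rank shift with all 3 antibodies, and the median of the 3 ranged from 3.67 to 10.1 points. Before 85 Mb 1 of 14 bins was positive with all 3 (60 to 65 Mb), 4 were negative and 9 differed in sign between antibodies, with values from −3.14 to 3.002. Over all chromosomes 29% of bins were positive with all 3 antibodies and 40% were negative. The change lay between neighbouring bins: shifts were −2.92, −0.03 and −1.15 points with SMC1, RAD21 and SMC3 in the bin from 80 to 85 Mb and 6.42, 6.74 and 5.31 in the bin from 85 to 90 Mb. Within a bin, pairs of antibodies of the same line differed by a median of 1.15 points from 85 Mb and 1.47 on chromosome 14, and by up to 6.78 and 8.47, so the size of the shift in a single bin is loosely known.

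**Figure D2:**
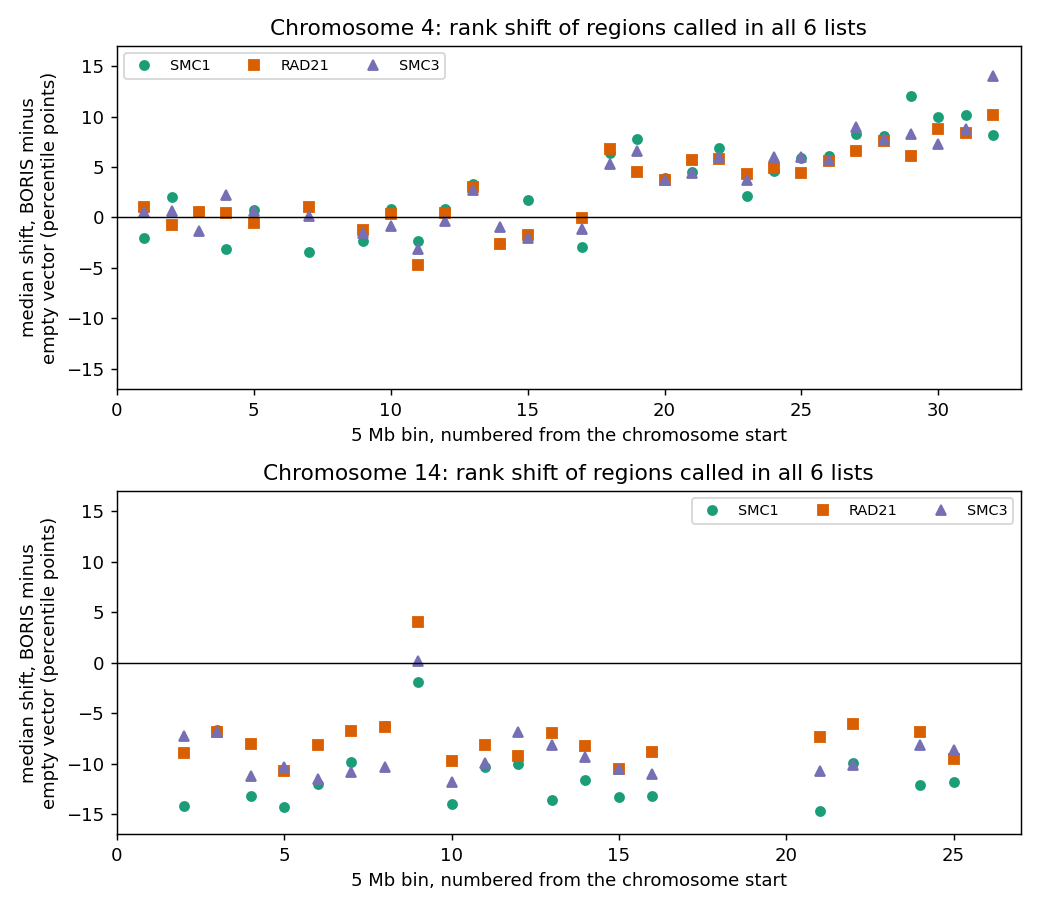
Median rank shift, BORIS minus EV in percentile points (vertical axis), of regions called in all 6 lists in 5 Mb bins of chromosomes 4 (top) and 14 (bottom), numbered from the chromosome start (horizontal axis), with 1 point per antibody and bin of at least 20 such regions. On chromosome 4 values scatter about 0 before 85 Mb and are positive in all 15 bins from bin 18 on (85 Mb), and on chromosome 14 they are negative with all antibodies in 18 of 19 bins, bin 9 (40 to 45 Mb) being the exception.

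Among bins with at least 20 shared regions, the most shifted of chromosome 4 were its last ones. Bin 155 to 160 Mb had shifts of 8.17, 10.1 and 14.1 points with SMC1, RAD21 and SMC3 over 35 shared regions. Bin 145 to 150 Mb had 9.92, 8.80 and 7.27 over 167, and bin 150 to 155 Mb had 10.1, 8.40 and 8.80 over 231. The lowest bins were 50 to 55 Mb, with −2.32, −4.73 and −3.14 over 43 regions, 65 to 70 Mb, with −2.49, −2.64 and −0.909 over 24, and 70 to 75 Mb, with 1.75, −1.72 and −2.00 over 27. Bins 40 to 45, 50 to 55, 65 to 70 and 80 to 85 Mb were negative with all 3 antibodies, all of them before 85 Mb.

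Private regions per bin depend on how many regions a bin holds, so they are also given as a share of its merged regions. Regions private to BORIS cells outnumbered those private to EV cells in 15 of 15 bins from 85 Mb, with up to 63 against 2 in the bin from 130 to 135 Mb, and in 12 of 14 bins before it, where the largest count was 21. Those counts were 7.15% of the 881 merged regions of the bin from 130 to 135 Mb and 4.56% of the 461 of the bin from 40 to 45 Mb. As a share, regions private to BORIS cells made up 1.46 to 8.66% of a bin from 85 Mb (median 5.27%). In bins before it with at least 20 shared regions they made up 0.625 to 5.75% (median 2.70%). The bins of the parts overlapped: 10 to 15 Mb had 5.75% and 85 to 90 Mb 3.28%. Bins before 85 Mb with fewer shared regions ranged more widely, with 4.08% at 25 to 30 Mb, 7.69% at 35 to 40 Mb and 0% at 75 to 80 Mb. From 85 Mb the list of BORIS cells was the longer with each antibody in 15 of 15 bins, by 1.02 to 1.58 times with SMC1, 1.11 to 1.47 with RAD21 and 1.14 to 1.78 with SMC3. Before 85 Mb it was longer in 7, 7 and 13 of all 17 bins with those antibodies, list lengths needing no minimum of shared regions.

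Bins with fewer than 20 shared regions did not all follow their neighbours. On chromosome 4 the bin from 25 to 30 Mb had BORIS lists 1.40, 1.65 and 1.67 times as long as the EV lists and rank shifts of 14.96, 8.92 and 6.54 points over 15 shared regions, and the bin from 35 to 40 Mb had lists 1.47 to 1.75 times as long and shifts of 3.30, 2.69 and 2.41 over 9. Both lay before 85 Mb and went the way of the distal part. On chromosome 14 the bin from 95 to 100 Mb had shifts of 5.77, 6.47 and −6.53 over 11 shared regions. Over all 26 bins of chromosome 14 the BORIS list was the longer in 1, 0 and 3 bins with SMC1, RAD21 and SMC3.

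**Figure D3:**
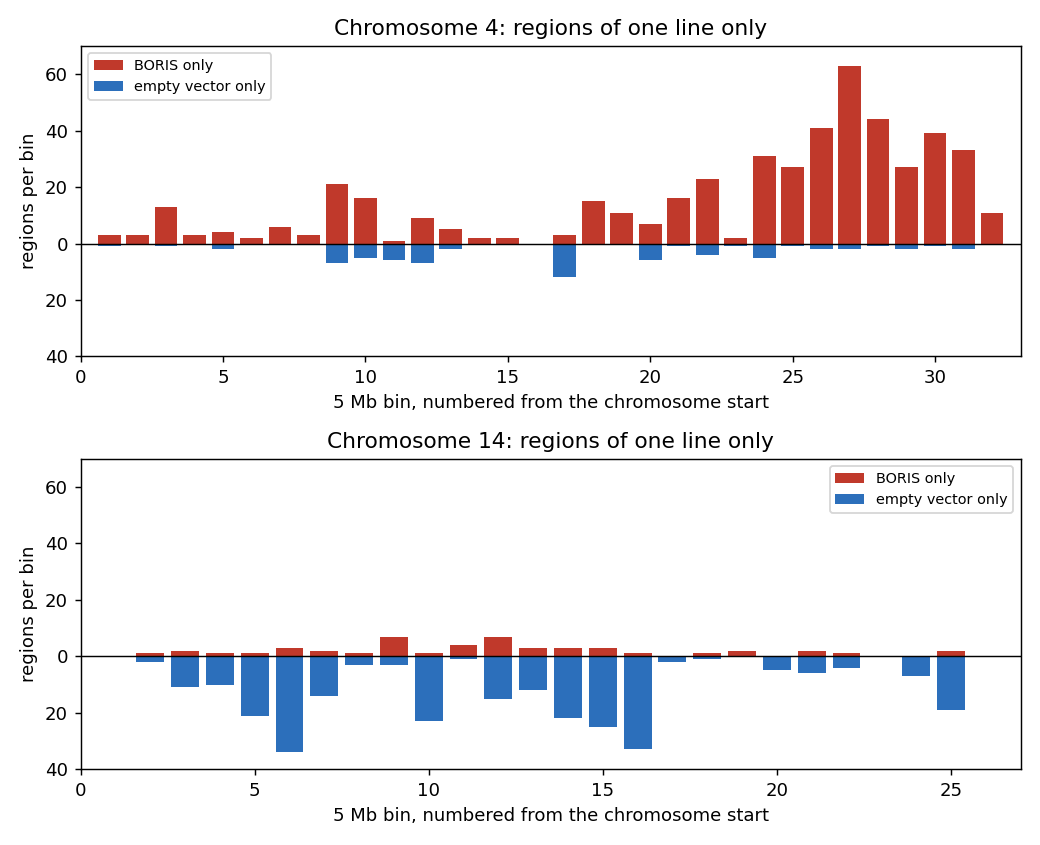
Number of regions private to BORIS cells and to EV cells (bars above and below the zero line, both counted outward from 0) in 5 Mb bins of chromosomes 4 (top) and 14 (bottom), numbered from the chromosome start (horizontal axis). On chromosome 4 BORIS-only counts reach 63 in 1 bin and lie above EV-only counts in all 15 bins from 85 Mb, and on chromosome 14 EV-only counts reach 34 and are higher in 17 of the 19 bins with at least 20 shared regions.

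The shift on chromosome 14 was found in most bins that could be assessed. Of its 26 bins, 19 held at least 20 shared regions, and 18 of those had a negative median shift with all 3 antibodies. The stretch from 80 to 100 Mb had no such bin, and neither had the first 5 Mb, 110 to 115 Mb and the last bin. The median of the 3 antibodies ranged from −11.8 to 0.18. The lowest bins were 45 to 50 Mb, with −14.0, −9.71 and −11.8 points over 109 shared regions, 25 to 30 Mb, with −12.0, −8.19 and −11.5 over 110, and 15 to 20 Mb, with −13.2, −8.02 and −11.2 over 46. Bin 25 to 30 Mb also held the most regions private to EV cells, 34, against 3 private to BORIS cells.

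The least shifted bins of chromosome 14 were 10 to 15 Mb, with −6.62, −6.83 and −6.87 over 28 shared regions, 35 to 40 Mb, with −6.29, −6.41 and −10.4 over 40, and 40 to 45 Mb, with −1.93, 4.07 and 0.18 over 55. The last was the bin in which the antibodies differed in sign. It held 7 regions private to BORIS cells and 3 private to EV cells, and regions private to EV cells were in the majority in 17 of the 19 bins.

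The chromosomes were picked as the extremes, and the distal part after its bins had been seen, so the place of their bins among all bins follows from the choice and is given as a description. The median bin from 85 Mb on chromosome 4 had a mean log2 pileup ratio of 0.29 and the median bin of chromosome 14 had −0.37. Of 434 bins of other chromosomes with at least 20 shared regions, 2 (0.461%) were as high as the first, from 10 to 15 Mb on chromosome 5 (0.30) and from 0 to 5 Mb on chromosome 9 (0.38). Another 2 were as low as the second, from 80 to 85 Mb on chromosome 7 (−0.40) and from 40 to 45 Mb on chromosome 8 (−0.42).

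To place the boundaries without bins, the stretch of shared regions whose scaled log2 pileup ratio differed most from the rest of its chromosome was sought for each antibody, with at least 20 regions inside. This search was added after the data had been seen, and a search of this kind always returns a stretch. On chromosome 4 it began at 88.1 Mb with SMC1, 85.1 Mb with RAD21 and 86.6 Mb with SMC3, and ended at 155.6 Mb with each, near the last shared region of the chromosome. The median inside was higher than outside by 0.30, 0.27 and 0.28 in log2. Taking the mean of the antibodies, the stretch began at chr4:86603717 and accounted for 11.2% of the sum of squares over the chromosome, where the 18 other chromosomes gave 0.758 to 3.24%.

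On chromosome 14 the search gave the same stretch with each antibody, chr14:42057118-44390345, 2.33 Mb long with 35 shared regions. It went against its chromosome. The median log2 ratio inside was 0.24 with SMC1, 0.34 with RAD21 and 0.29 with SMC3, and outside it was −0.41, −0.38 and −0.38. The 20 shared regions next to it on the left had medians of −0.35, −0.32 and −0.52, and the 20 on the right −0.52, −0.33 and −0.38, as a search for the most different stretch tends to give by construction. The nearest shared regions outside ended at 41976337 and started at 44399614. Inside, 18 of the 35 regions had a log2 ratio above 0 with all 3 antibodies and 2 below 0 with all 3. By rank shift, 14 of the 35 (40.0%) ranked higher in BORIS cells with all 3 and 4 (11.4%) ranked lower.

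The stretch held 94 merged regions, of which 7 (7.45%) were private to BORIS cells, against 0.808% of the rest of the chromosome and 2.41% over all chromosomes. Most of the 7 lay close together, between 43767260 and 43847622, and the lowest percentiles of the 7 ranged from 4.21 to 46.3. The stretch was sought in the same lists, so its private counts are a description. Private to EV cells were 0, which allows a share of up to 3.19%, against 5.38% of the rest of the chromosome and 1.61% over all chromosomes, so the 0 is not apart from the latter. BORIS lists held 1.14, 0.971 and 1.25 times the regions of the EV lists inside it, and 0.686, 0.698 and 0.783 times over the rest of the chromosome. The local background beside its summits was 1.60 to 1.71 times the genome-wide level of the list, against 1.63 to 1.70 times outside. The median ratio of this background between the lines was the genome-wide one, so it cannot show a difference between lines in the stretch. Median pileups inside were 22, 26 and 30 in EV cells with SMC1, RAD21 and SMC3, below the 39, 43 and 46 outside, and 19, 28 and 25 in BORIS cells, against 24, 24 and 28 outside. No Snf2h region of either CH12 list lay inside it, where the whole of chromosome 14 held 920 in wild-type and 1145 in mutant cells. Whether reads can be placed along the whole stretch was not tested.

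**Figure D4:**
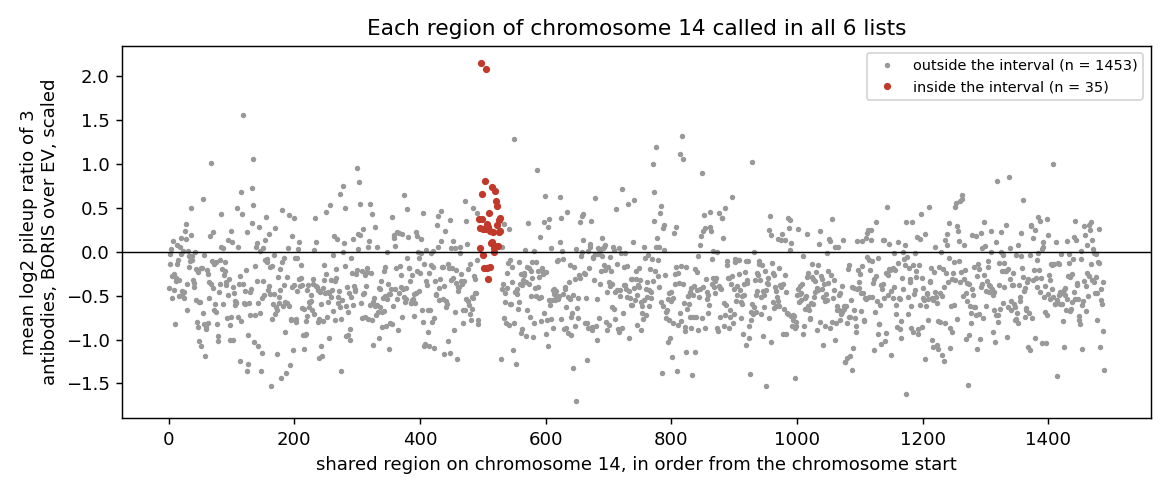
Scaled log2 ratio of summit pileup, BORIS over EV, averaged over the 3 antibodies (vertical axis), of each region called in all 6 lists on chromosome 14 (points), in order from the chromosome start (horizontal axis), with the regions of the stretch in red. Most points lie below 0, and the 35 regions of the stretch of 2.33 Mb have a median of 0.26 while those outside have −0.41.

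The sign of the shift was the same for weak and strong regions, while its size differed. All shared regions of the genome were split into 4 equal groups by their mean rank over the 6 lists, and each group was scaled to the same group on the other 18 chromosomes. From 85 Mb on chromosome 4 the median log2 ratio ranged over the antibodies from 0.22 to 0.23 in the weakest group, 0.34 to 0.38 in the second, 0.39 to 0.42 in the third and 0.25 to 0.26 in the strongest. On chromosome 14 it ranged from −0.30 to −0.20, from −0.45 to −0.42, from −0.45 to −0.42 and from −0.39 to −0.32. Before 85 Mb on chromosome 4 all groups lay between −0.08 and 0.05.

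**Figure D5:**
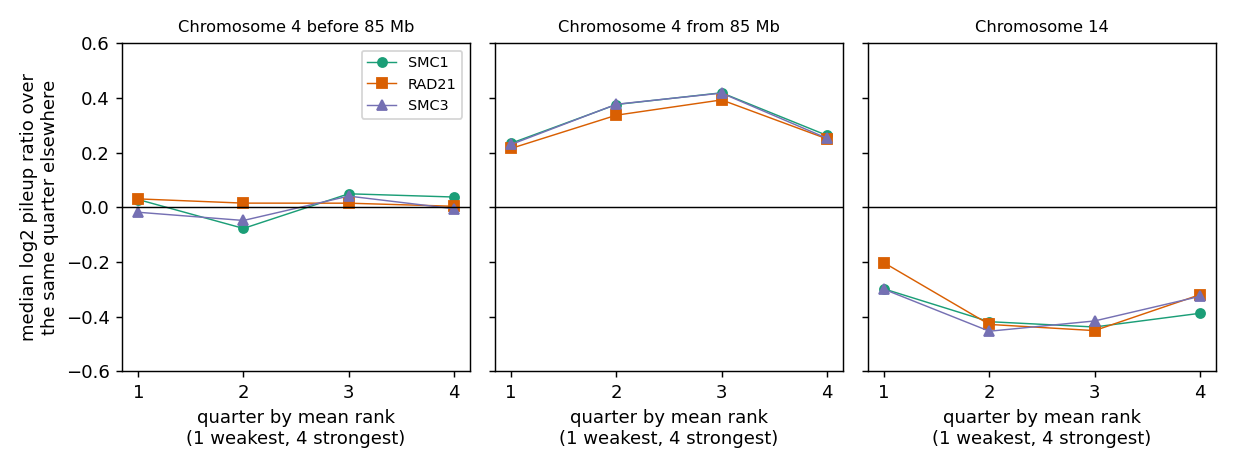
Median log2 ratio of summit pileup, BORIS over EV (vertical axis, scaled to the same group on the other chromosomes), of regions called in all 6 lists in 4 groups of strength from weakest to strongest (horizontal axis), for both parts of chromosome 4 and for chromosome 14, with 1 line for each antibody. In every group the part of chromosome 4 from 85 Mb lies above 0 and chromosome 14 below it.

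A merged region spans the regions of 3 lists if private and of 6 if shared. Single regions of a list had median widths of 222 to 236 bp. Private regions were narrower and weaker than shared ones in every part. Those private to BORIS cells from 85 Mb had a median width of 236 bp and those private to EV cells on chromosome 14 of 255 bp, while shared regions had medians of 492 and 426 bp. The median of the lowest percentile among the 3 lists was 27.2 for the former and 16.7 for the latter, against 56.2 and 53.9 for shared regions. Of the 878 private regions of both chromosomes, 0 lay in the strongest 10% of every list of their line, which allows a share of up to 0.342%. On the other chromosomes it was also 0, of 3100 regions private to BORIS cells and 2075 private to EV cells. There the medians of the lowest percentile were 24.2 and 16.3, and the median widths were 216 and 231 bp. The weakness of private regions was thus not particular to the chromosomes described here.

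The strongest private regions of each chromosome and line are given with their pileups, beside a median over all regions of a list of 20 or 21 in EV and 19 in BORIS cells. On chromosome 4, chr4:140726087-140726413 had pileups of 35, 35 and 40 in BORIS cells with SMC1, RAD21 and SMC3, chr4:45909341-45909762 had 29, 29 and 40, and chr4:128961518-128961832 had 32, 31 and 37, each called in no EV list. In the other direction, chr4:81119763-81119962 had 22, 37 and 25 in EV cells, chr4:100650190-100650430 had 26, 26 and 42, and chr4:41592647-41592825 had 21, 18 and 16, each called in no BORIS list. These are single regions on a chromosome where regions private to BORIS cells were otherwise the more numerous.

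On chromosome 14, chr14:25759442-25759695 had pileups of 34, 39 and 46 in EV cells, chr14:79701179-79701640 had 44, 37 and 48, and chr14:46471294-46471557 had 22, 29 and 27, and none was called in a BORIS list. Private to BORIS cells were chr14:103845928-103846288 with 36, 18 and 34, chr14:27849385-27849675 with 17, 14 and 21, and chr14:8661422-8661621 with 23, 15 and 26. In these the RAD21 pileup was the lowest of the 3.

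Shared regions could move far in either direction. At chr4:107921837-107922573 pileups went from 19, 12 and 16 in EV cells to 58, 46 and 75 in BORIS cells with SMC1, RAD21 and SMC3. At chr4:115730201-115730513 they went from 25, 17 and 20 to 69, 58 and 76. The largest downward shifts on chromosome 4 were at chr4:151755230-151755573, from 54, 60 and 82 to 14, 17 and 26, and at chr4:40165504-40165733, from 37, 47 and 44 to 16, 14 and 19. In all 4 regions the lists of the lines did not overlap in pileup, which is not scaled between lists. The regions were picked for the size of their rank shift, so the lack of overlap largely follows from the choice and is a description. How many shared regions show it was not counted. The region at 151755230 lay in the distal part, where most shared regions ranked higher in BORIS cells.

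On chromosome 14 the largest downward shifts were at chr14:51456917-51457266, from 37, 52 and 51 in EV cells to 10, 13 and 11 in BORIS cells, and at chr14:21705519-21705844, from 33, 30 and 47 to 11, 9 and 12. The largest upward shifts were at chr14:42149769-42150123, from 17, 20 and 20 to 66, 59 and 76, and at chr14:42712462-42712878, from 23, 16 and 33 to 102, 54 and 83. Both of the latter lay inside the stretch from 42057118 to 44390345. These regions were picked for their size of change, so their values are a description.

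The strongest shared regions, chosen by their lowest percentile over the 6 lists, were near the top of the lists of both lines. At chr4:59353445-59354134 pileups were 209, 213 and 214 in EV cells and 185, 184 and 200 in BORIS cells. At chr4:94674629-94675610 they were 170, 203 and 190, and 135, 199 and 183, and at chr4:62876004-62877593 they were 196, 208 and 208, and 164, 182 and 203. On chromosome 14, chr14:34026903-34028035 had 200, 224 and 219 in EV cells and 150, 180 and 176 in BORIS cells, chr14:26619576-26620110 had 168, 188 and 180, and 131, 161 and 166, and chr14:32845500-32846254 had 177, 179 and 201, and 128, 141 and 153. Every one of these pileups, which are not scaled between lists, was lower in BORIS cells. Without scaling, shared regions of the other chromosomes also had median ratios below 1, at 0.778, 0.789 and 0.819 with SMC1, RAD21 and SMC3. In the strongest of the 4 groups by mean rank, their median log2 ratios were −0.48, −0.44 and −0.37. The lower pileups therefore show no loss particular to the regions named here.

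The background set against each summit differed between the lines by the genome-wide ratio alone. At shared regions whose summits in the 2 lines lay within 10 bp of each other, the median log2 ratio of background, BORIS over EV, was 0.04 with SMC1, 0.01 with RAD21 and −0.02 with SMC3 on both parts of chromosome 4, on chromosome 14 and on the other chromosomes alike, which is the ratio of the genome-wide backgrounds of the lists (0.04, 0.01 and −0.02). The control behind these backgrounds is not given in the sources used here, so the values measure neither copy number nor a difference between chromosomes.

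Snf2h, the motor subunit of ISWI chromatin remodellers, was mapped in the same series in CH12 cells, a mouse B-cell lymphoma line, wild-type and mutant, which share no cells with NIH3T3. Of the shared regions on chromosome 14, 203 of 1488 (13.6%, interval 11.9 to 15.5%) overlapped a Snf2h region of wild-type cells. On chromosome 4 the share was 6.68% (5.28 to 8.31%) before 85 Mb and 9.64% (8.50 to 10.9%) from it, and on the other chromosomes 7.88% (7.63 to 8.12%). The list of mutant cells had a like order, with 15.5%, 9.12%, 12.7% and 10.2%. These shares were not scaled for the number of Snf2h regions on a chromosome. Chromosome 14 held 920 of the 17304 wild-type Snf2h regions, beside 5171 of the 150690 merged cohesin regions. Whether its higher share goes beyond that was not tested. Of the 390 BORIS-only regions from 85 Mb, 2 (0.513%) overlapped the wild-type list and 4 (1.03%) the mutant list, where BORIS-only regions of the other chromosomes gave 1.35% and 1.77%. Of the 273 EV-only regions of chromosome 14, 6 (2.20%, interval 0.811 to 4.72%) and 13 (4.76%, 2.56 to 8.01%) did so, where EV-only regions of the other chromosomes gave 1.54% (1.06 to 2.17%) and 1.73% (1.22 to 2.39%). On the mutant list the intervals for EV-only regions of chromosome 14 and of the other chromosomes did not overlap, and on the wild-type list they did.

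Long stretches without any cohesin region numbered 3 on chromosome 4 and 7 on chromosome 14, where 19 other chromosomes (X and Y among them) had 0 to 13 with a median of 2, and 2 of those had at least 7. Chromosome 4 had 3 of at least 1 Mb with no region in any of the 6 lists, chr4:6744561-7780546, chr4:36236452-37392401 and chr4:78698790-80109615, all before 85 Mb. Chromosome 14 had 7, from 1.01 to 1.54 Mb long: chr14:11068291-12139679, chr14:38763707-39805198, chr14:82056566-83153090, chr14:83153322-84269652, chr14:109230977-110239658, chr14:111549140-112732244 and chr14:113424641-114967279. Snf2h regions of CH12 cells lay in 3 of 3 on chromosome 4 and in 4 of 7 on chromosome 14, with at most 8 of a list in any of them. Whether reads can be placed along the whole of these stretches was not tested.

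Taking each line on its own, chromosome 4 had 4 such stretches in EV cells and 4 in BORIS cells, and chromosome 14 had 9 and 8, where the other chromosomes together had 97 and 79. The longest on these chromosomes was chr14:107165430-110239658 in EV cells (3.07 Mb), in which BORIS cells had 3 regions, 1 of them called with all 3 antibodies. No long stretch of either chromosome was emptied in one line and well filled in the other: BORIS cells had at most 4 regions in any stretch empty in EV cells, and EV cells at most 3 in any stretch empty in BORIS cells.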

How the data were processed

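ChIP-seq peak lists of 6 NIH3T3 samples (2 lines, 3 antibodies) were used, plus 2 Snf2h lists of CH12 cells for overlaps and gaps only. The submitters' processing notes name Bowtie, Bowtie2, SAMtools, MACS2 and deepTools 3.5.0 and the builds mm9 and hg19, without roles. Chromosome 1 ends reach 197182423, beyond the last GRCm38 gene end (195291439), so coordinates were taken as mm9, no gene was assigned and no sequence printed. A tag in the Snf2h region names may mean that replicates were pooled.

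The authors deposited for each region a score, a fold (the ratio of summit pileup to local background, each plus 1), a −log10 p and a −log10 q. Pileup and background were solved from fold and −log10 p, and came out whole within 0.001 in −log10 p. Where a list had several regions in a merged region, the strongest was used. Chromosomes, members and lists of regions were chosen with earlier results of these data known. The split at 85 Mb and the stretch search were chosen after seeing the data.

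Named regions were, per chromosome, the 3 strongest private ones of each line by lowest percentile (at most 3 kb wide, none of the other line within 1 kb), the 3 strongest shared, and the 2 largest rank shifts each way. Named bins were the 3 highest and 3 lowest and any against their chromosome. With 1 library per group no p-value was computed. Intervals (95%, Clopper-Pearson) cover counting error only, and neighbouring regions are not independent. Alternatives were stricter q, equal list lengths, 2 antibodies, leaving out an antibody, summit clusters, distance, other ranks, scalings, bin widths and minimums. Scripts (Python 3.11.15, pandas 2.3.3, numpy 2.4.6, scipy 1.17.1) were tested on simulated data.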

Additional observations from a re-analysis of the deposited data

How the results depend on the processing

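No paired analysis was possible because each group had 1 library. Of 128 values under alternatives, 88 stayed close (ratios and bin shares within the counting interval, counts within 1.5 times, shifts and pileup ratios changed by no more than the width of the range over antibodies), 38 moved further and 2 crossed 1; the cause was not tested. These were the private ratio of chromosome 4 before 85 Mb at a −log10 q of at least 10 (0.769) and the pileup ratio of chromosome 4 scaled by genome-wide background (0.911, with 0.607 for chromosome 14 and 0.754, 0.784 and 0.831 for the other chromosomes, a shift common to all). At a −log10 q of at least 10 the private ratios were 4.00 on chromosome 4 and 0.0505 on chromosome 14, the rank shifts were 5.48 on chromosome 4, −12.5 on chromosome 14 and 8.73 from 85 Mb, the pileup ratio of chromosome 14 was 0.780, and the pileup ratio before 85 Mb was 1.00. With at least 2 antibodies the private ratios were 4.43 and 0.262. Leaving out SMC1, RAD21 or SMC3 gave 4.59, 4.54 and 4.30 on chromosome 4; without RAD21 chromosome 14 gave 0.269. Before 85 Mb the ratio was 1.34 without SMC1 and 1.25 without SMC3, and from 85 Mb it was 8.68 without RAD21 and 9.22 without SMC3. With percentiles among all regions of a list the rank shifts of chromosomes 4 and 14 were 2.45 and −6.90, and in bins of 10 Mb 100% of bins of chromosome 14 were negative.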
